A study of Mus musculus with 38 samples.

Results

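Narrow promoter clusters are groups of transcription start sites that lay within 150 bp or less of each other in the soleus muscle of mice sampled around fasting-induced torpor. They were chosen by width alone, as the clusters of the deposited table whose end minus start was at most 150 bp, which gave 1518 of 10819 clusters. The 9301 wider clusters are called the other clusters. Narrow clusters spanned 3 to 150 bp with a median of 111 bp, and the other clusters had a median of 312 bp. Widths ran on without a break across the limit, with 35 clusters of exactly 150 bp (median level 12.4 CPM, the count of a cluster scaled to library size) and 17 of 151 bp (median 10.8 CPM).

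The soleus is a slow, oxidative muscle of the lower leg, and torpor is a reversible fall of metabolic rate and body temperature that mice enter when food is withdrawn in the cold. Each of the 38 libraries came from 1 male C57BL/6J mouse of about 8 weeks of age, and no genetic change or drug was used. Transcription starts were counted by CAGE, in which the capped 5′ ends of RNA are sequenced without amplification, so that 1 tag marks 1 start. The libraries were made in 2 runs: run 1 held 28 libraries and run 2 held 10.

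Pre mice had food and were taken on day 1, before the fast, at low ambient temperature (4 libraries in run 1 and 2 in run 2). Mid mice were without food and were taken on day 2, in the torpor period (8 and 5 libraries). Post mice had been given food again and were taken on day 3 (4 and 3 libraries). HiT mice were fasted at a high ambient temperature, Fed mice kept their food at the low temperature, and Dep mice were fasted in the cold but kept out of torpor by gentle touching (4 libraries each, in run 1 only). The deposited labels describe food in the HiT and Fed groups in conflicting ways, and the groups are used here as the study's methods describe them. Whole muscle was taken, so a lower level cannot tell apart fewer cells of a type from less RNA per cell.

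Mammalian promoters differ in how tightly they place RNA polymerase II. At focused promoters, often those of tissue-restricted or inducible genes, a TATA box about 30 bp upstream and an initiator (a pyrimidine followed by a purine, the first base of the RNA) fix the start within a few bases. At dispersed promoters, typical of housekeeping genes in CpG islands, starts scatter over a wide stretch. A narrow CAGE cluster can arise in another way too: a processed pseudogene is a copy of a spliced mRNA pasted back into the genome, and tags from the parent gene can be placed on the copy because the sequences are nearly identical.

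The sequences of 41 bases upstream of and at the start show examples with and without TATAAA among the narrow clusters the results turn on. Other forms of the TATA box were not searched for, and the Zfp36 and Ddit3 sequences hold CATAAA. The printed sequences come from RefSeq promoters on the mm10 (GRCm38) build, and the tabulated peak lies 2 bp before the last base printed. Capitals mark TATAAA where it is present, and the last pair of bases, which is where the pyrimidine and purine of an initiator fall in most clusters. S100a8, Per1 and Slc25a22 have no such pair there. The first set carries TATAAA at 26 to 31 bp before the peak: Gadd45b and Gadd45g, which are stress-induced growth arrest genes (chr10:80930034-80930074 and chr13:51846638-51846678, both plus strand), Inmt, a methyltransferase of small amines (chr6:55175026-55175066, minus strand), the linker histone gene Hist1h1b (chr13:21780625-21780665, minus strand), the liver cytochrome gene Cyp2c29 (chr19:39287057-39287097, plus strand), and S100a8, a calcium-binding protein of neutrophils (chr3:90669033-90669073, plus strand).
Gadd45b: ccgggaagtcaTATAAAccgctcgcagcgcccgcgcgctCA
Gadd45g: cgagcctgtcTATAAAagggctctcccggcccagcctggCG
Inmt: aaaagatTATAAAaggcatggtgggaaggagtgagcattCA
Hist1h1b: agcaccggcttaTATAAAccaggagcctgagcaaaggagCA
Cyp2c29: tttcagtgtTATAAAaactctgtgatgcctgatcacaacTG
S100a8: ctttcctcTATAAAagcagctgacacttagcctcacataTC

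The second set, from clusters with the largest changes between conditions, holds no TATAAA in the window: Per1, a repressor of the circadian clock (chr11:69098922-69098962, plus strand), Slc25a22, a mitochondrial glutamate carrier (chr7:141435336-141435376, minus strand), Ehhadh, an enzyme of peroxisomal fatty acid oxidation (chr16:21787807-21787847, minus strand), Zfp36, which speeds the decay of AU-rich mRNAs (chr7:28379255-28379295, minus strand), and Ddit3, a stress transcription factor also known as CHOP (chr10:127290757-127290797, plus strand).
Per1: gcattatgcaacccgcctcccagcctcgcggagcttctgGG
Slc25a22: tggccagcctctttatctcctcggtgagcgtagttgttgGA
Ehhadh: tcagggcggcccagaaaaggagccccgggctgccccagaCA
Zfp36: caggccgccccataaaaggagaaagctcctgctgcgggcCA
Ddit3: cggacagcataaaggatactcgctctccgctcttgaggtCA

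RefSeq promoter sequence around the peak was at hand for 540 narrow and 4354 other clusters. Of the 540, 518 were at protein-coding genes, 11 at other RNA genes, 8 at pseudogenes and 3 near no annotated 5′ end. The shares given here and below therefore describe narrow clusters of protein-coding genes, and hardly those of pseudogenes. TATAAA on the strand of transcription, starting 36 to 22 bp before the tabulated peak, was found in 32 of 540 narrow clusters (5.93%, 95% Wilson interval 4.23 to 8.25%) and in 134 of 4354 other clusters (3.08%, 2.60 to 3.63%). Among all 32851 RefSeq promoters the share was 1.79%, counted 34 to 20 bp before the annotated gene start and not before a peak. The share was 13.5% among the 89 narrow clusters of 100 bp or less with sequence. It also moved with level: in the lowest of 10 classes of mean CPM it was 13% of 115 narrow and 5.80% of 224 other clusters, and in the class above it was 1.22% of 82 and 2.37% of 379. The part of level in the difference was not tested.

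The 32 narrow clusters with TATAAA belonged to 32 genes. They held liver genes (Afp, Apob, Cyp2a5, Cyp2c29, Cyp8b1, Fabp1 and Itih3), genes of the outer skin (Flg, Hrnr and Lor), histone genes (Hist1h1a, Hist1h1b and Hist1h4j), S100 proteins of white blood cells (S100a8 and S100a9) and the stress genes Gadd45b and Gadd45g, along with genes of other kinds such as Ackr3, Hes6, Inmt, Rplp0 and Tubb2a, and no test of these groups was made. The pyrimidine and purine pair lay at the tabulated peak in 25.3% of narrow clusters but 2 bp downstream of it in 73.7%, against 22.4% and 79.0% of other clusters. The table therefore places the peak 2 bp before the first transcribed base in most clusters, narrow or not.

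Other motifs within 100 bp differed too, read on both strands. The shares of all RefSeq promoters were counted before the annotated gene start and not before a peak. A GC box (GGGCGG) was in 39% of narrow and 55.3% of other clusters, and in 24.7% of all RefSeq promoters. A CCAAT box was in 30.8% and 23.8% (18.9% of all promoters), and the cyclic AMP response element TGACGTCA was in 3.90% and 2.60% (1.15% of all). Median GC content was 64.7% in narrow and 68.6% in other clusters, and the median ratio of observed to expected CpG was 0.80 and 0.90.

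By annotation, narrow clusters were a mixture of 2 main kinds. Of the 1518, 802 (52.8%) lay within 500 bp of the 5′ end of a protein-coding gene, 444 (29.2%) at a pseudogene, 25 at another RNA gene, and 247 near no annotated 5′ end. Among other clusters 85.5% were at protein-coding genes and 2.29% at pseudogenes. The pseudogene share fell in steps with width: it was 62.5% of 96 clusters of 25 bp or less, 58.5% of 142 of 26 to 50 bp, 52.5% of 396 of 51 to 100 bp, 10.5% of 884 of 101 to 150 bp and 3.35% of 1551 of 151 to 200 bp. Most of the change in makeup thus sat near 100 bp, inside the limit of 150 bp.

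**Figure D1:**
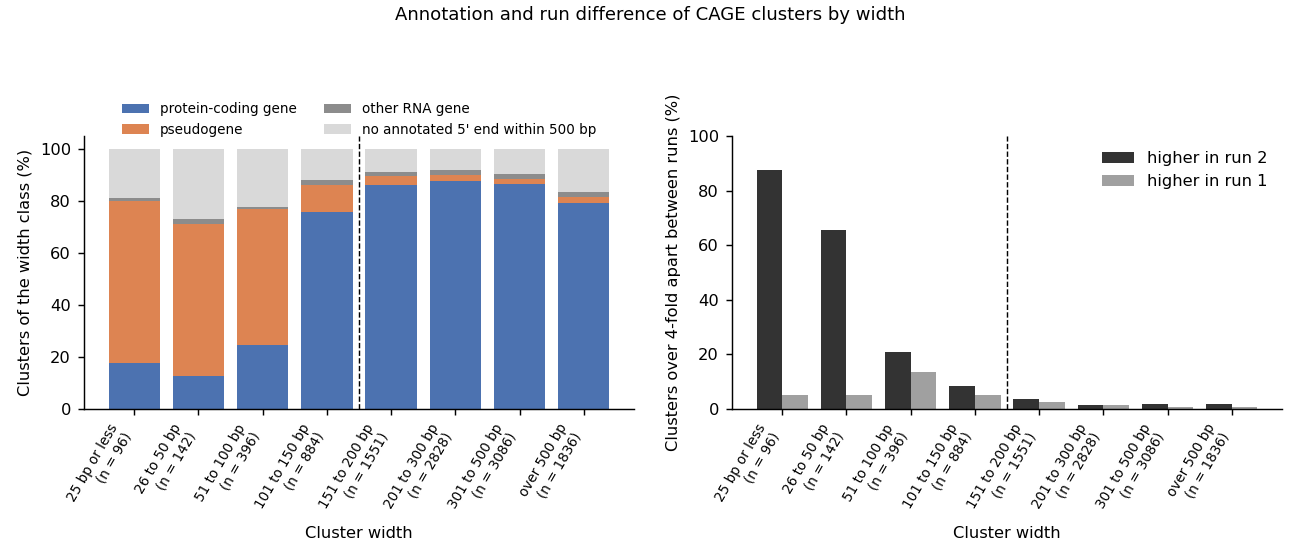
Left, the share of clusters (percent) at protein-coding genes, pseudogenes, other RNA genes and no annotated 5′ end, by cluster width in bp; right, the percent of clusters over 4-fold higher in run 2 or in run 1, by width. Pseudogenes made up 62.5% of the clusters of 25 bp or less and 3.35% of those of 151 to 200 bp, just past the dashed line at 150 bp.

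Of the 802 narrow clusters at protein-coding genes, 757 were the only cluster of their gene and 45 were 1 of several. For 421 of the 802, no more than 5 bp separated the peak from an annotated gene start. Pseudogene clusters sat elsewhere: the median peak was 42 bp upstream of the annotated start of the pseudogene, and 12 of 444 were within 5 bp of it. Of the 444, 416 were processed pseudogenes, the copies of spliced mRNAs.

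Parent genes were found by sequence for 443 of the 444 pseudogenes, with a median identity of 97.8%, and 164 had a ribosomal protein gene as parent. The peak on the copy could be carried over to the parent for 391. In 202 of them (51.7%) it landed within 5 bp of the parent's own peak, in 265 within 20 bp and in 311 within 50 bp. Wider pseudogene clusters were placed alike: 94 of 193 (48.7%) landed within 5 bp, 122 within 20 bp and 154 within 50 bp. Their median identity to the parent was 99.6%. In run 1, 275 of 406 narrow copies with a measured parent had a lower level than the parent, and 112 of 198 wider ones.

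Among annotated narrow clusters, most of those with many tags were of this kind. Levels are given in TPM, tags of a cluster scaled to a common library total. Above every annotated narrow cluster stood 5 clusters near no annotated 5′ end, with means of 1039 to 2275 TPM in run 1. Of the 20 annotated narrow clusters with the highest mean level in run 1, 16 were pseudogenes, led by Cox6c2 (964 TPM; a copy of a cytochrome c oxidase subunit gene), Chchd2-ps (925 TPM), Gm16399 (921 TPM) and Gm17511 (851 TPM). The others were the RNA genes Mir6236 (955 TPM) and Gm10076 (537 TPM) and the protein-coding genes Actb, cytoplasmic beta-actin (419 TPM), and Rps14, a protein of the small ribosomal subunit (297 TPM). Reads shared between near-identical copies make all levels of copies and parents uncertain.

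Several libraries carried tags of genes that define tissues other than muscle, and many of those genes have narrow clusters. Slow-fibre and fast-fibre marker genes were high in every library (8938 to 26224 TPM and 12934 to 29466 TPM summed in run 1), as a sample of mixed-fibre muscle should show. Of the liver marker list, 17 of 18 genes had a cluster and 14 had a narrow one, and only Apoa1 was absent. Its summed level was 608 TPM in Fed 2 and 483 TPM in Fed 3, and 12.2 to 99.8 TPM in the other 26 libraries of run 1. In run 2 it was 1759 TPM in Post 7 and 832 TPM in Mid 11, 216 and 295 TPM in the Pre libraries, and 40.2 to 141 TPM in the rest.

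The skin list was raised in several libraries of run 2 and the white-cell list mainly in Dep 1. Of the keratinocyte list 9 of 12 genes had a cluster, 7 of them narrow. Its sum was 685 TPM in Mid 11, 88.2 TPM in Mid 9, 52.6 TPM in Mid 12, 33.9 TPM in Mid 10 and 17.5 TPM in Pre 6, at most 4.58 TPM in the other run 2 libraries and 0.514 to 3.08 TPM across run 1. Of the neutrophil list 4 of 8 genes had a cluster (Camp, Ngp, S100a8 and S100a9, all narrow; Cxcr2, Ltf, Mmp8 and Retnlg had none). Its sum was 117 TPM in Dep 1, at most 1.74 TPM in the other run 1 libraries and 7.92 TPM in Mid 11. Of the cell division list 4 of 10 genes had a cluster and none was narrow, with 25.8 to 57.3 TPM in HiT and 11.6 to 25.5 TPM elsewhere in run 1. Of the macrophage list 7 of 8 genes had a cluster and none was narrow (Adgre1 was absent), with 143 to 430 TPM in HiT and 33.9 to 99.9 TPM elsewhere in run 1.

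**Figure D2:**
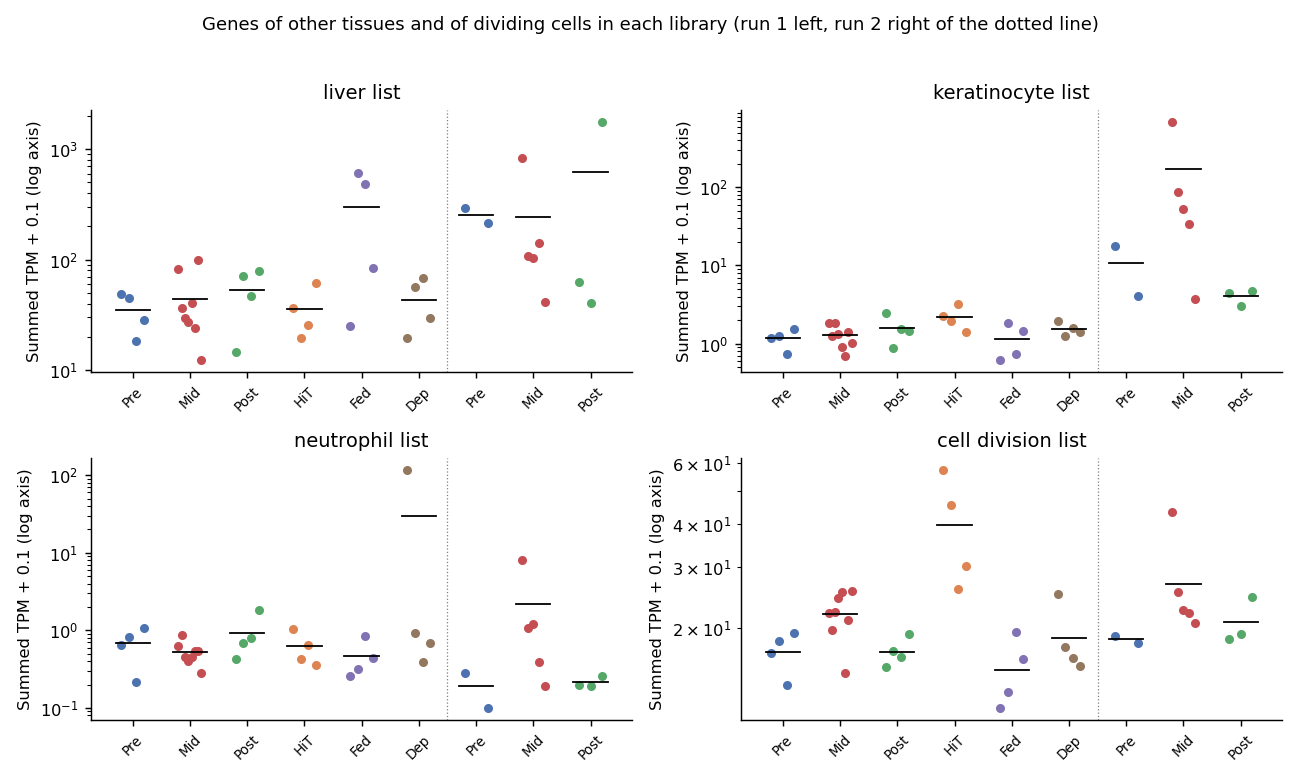
Summed level in TPM (0.1 added, log axis) of marker genes of liver, keratinocytes, neutrophils and cell division, with 1 point per library and a bar at each group mean. Fed 2 and Fed 3 stand at 608 and 483 TPM for the liver list, Dep 1 at 117 TPM for the neutrophil list and Mid 11 at 685 TPM for the keratinocyte list.

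Those libraries hold most of the isolated high values among narrow clusters. Of the 802 narrow clusters at protein-coding genes, those at 5 TPM or more and at least 10 times the median of their run numbered 54 in Fed 2, 43 in Fed 3, 20 in Mid 7, 63 in Post 7 and 30 in Mid 11, and at most 7 in any other library. Of the 7948 other clusters at protein-coding genes the numbers were 7, 5, 2, 11 and 31 in these libraries, and up to 44 (HiT 1) elsewhere. Counts from Fed to Mid are given below with and without Fed 2 and Fed 3. Run 2 counts are given without Mid 11 and Post 7 where they moved. Mid 7 was left out only in the fits that drop 1 library at a time.

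Narrow clusters were lower than other clusters. The median level in run 1 was 9.53 CPM against 19.1 CPM, and 14.6% of narrow against 0.333% of other clusters were under 1 CPM. Narrow clusters at protein-coding genes had a median of 9.18 CPM, those at pseudogenes 17.2 CPM and those near no 5′ end 6.83 CPM. By width, the median level in run 1 was 0.033 CPM at 25 bp or less and 1.19 CPM at 26 to 50 bp. It was 16.8 CPM at 51 to 100 bp and 10.1 CPM at 101 to 150 bp, so level did not rise evenly with width. The low level of the shortest clusters held for run 1: those of 25 bp or less took 0.0156% of tags in run 1 and 0.267% in run 2. The spread between libraries of a group was close to that of other clusters in run 1 (median SD of 0.20 against 0.19 on the log2 scale) and above it in run 2 (0.24 against 0.17).

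Narrow clusters held 1518 of 10819 clusters but a small share of the tags, 5.36 to 6.88% in run 1 (median 5.95%). The group means ± SD in run 1 were 6.23 ± 0.11% in Pre (n = 4), 5.71 ± 0.23% in Mid (n = 8), 6.05 ± 0.29% in Post (n = 4), 6.30 ± 0.57% in HiT (n = 4), 6.01 ± 0.21% in Fed (n = 4) and 5.75 ± 0.25% in Dep (n = 4). All 8 Mid libraries lay below all 4 Pre libraries, and Mid overlapped every other group. In run 2 the shares were 7.56 ± 0.26% in Pre (n = 2), 7.43 ± 0.17% in Mid (n = 5) and 7.44 ± 0.12% in Post (n = 3). Conditions within a run thus differed by less than the runs did.

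The runs did not overlap: run 2 libraries held 7.15 to 7.74% (median 7.46%). Protein-coding genes took 0.923 to 1.70% of tags in run 1 and 1.08 to 1.60% in run 2, and pseudogenes took 2.06 to 3.74% and 2.15 to 3.02%, so both kinds overlapped. Clusters near no 5′ end took 1.01 to 2.42% in run 1 and 2.76 to 3.83% in run 2, which do not overlap. A few clusters decide the sum: in run 1, 10 clusters held 20.5% of the narrow tags and 61 held 50% of them.

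Single narrow clusters differed more between runs than other clusters did, in a comparison that did not match level. The 16 Pre, Mid and Post libraries of run 1 were set against the 10 of run 2. Of narrow clusters, 22% were over 4-fold higher in run 2 and 7.25% over 4-fold higher in run 1, against 1.92% and 1.14% of other clusters. The share higher in run 2 was 87.5% at 25 bp or less and 65.5% at 26 to 50 bp. All libraries of one run lay above all of the other in 39.3% of narrow and 17.5% of other clusters. The input tables named in the file headers of all 28 run 1 libraries carry a merged BWA step that those of the 10 run 2 libraries lack. The runs were also separate batches of mice, and the methods name a pair of sequencing platforms. Mice, mapping, platform and library making therefore cannot be told apart.

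Of the 43 clusters with no tag in any run 1 library, 42 were narrow, with a median width of 23 bp. A count of 0 over the run allows a level of up to 0.00393 TPM (3 tags over all 28 libraries, counting error only). Of the 42, 27 had tags in all 10 run 2 libraries. By annotation 14 were at protein-coding genes, 8 at pseudogenes, 19 near no 5′ end and 1 at a small nuclear RNA gene. Of the 14 at protein-coding genes, 13 were highest in Mid 11, the library with keratinocyte tags.

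The clusters near no annotated 5′ end held some of the largest values and the largest differences between runs. Of the 247, 168 lay outside genes on their strand, 40 in an exon and 39 in an intron, and 35 lay within a pseudogene entry of RefSeq. The cluster at chr15:47539963-47540108 (plus strand) had 1449 to 3094 TPM in run 1 (median 2258 TPM) and 746 to 1008 TPM in run 2 (median 831 TPM). All libraries of run 1 lay above all libraries of run 2. The cluster at chr13:107121697-107121719 (plus strand) had no tag in run 1 and 122 to 216 TPM in run 2.

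Pseudogene copies were set beside their parents across the runs. In 130 families whose copies peaked within 5 bp of the parent's peak (240 copies), the median size of the log2 ratio of run 2 to run 1 was 0.85 for the parent, 0.85 for its copies summed, and 0.41 for parent and copies together. More than 2-fold differences were seen in 59 parents, in 58 sets of copies and in 18 sums. The ratio of a sum always lies between those of its parts, so its smaller median is no result by itself. The sum can be nearer to no difference than both parts only where parent and copies went opposite ways, as in 68 of 130 families. It was so in 55 of these. In 40 families the parent was higher and the copies lower in run 2, in 28 the reverse held, in 17 both were higher and in 45 both were lower.

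The families described next are examples chosen after their values were seen. For Acadm, which starts the oxidation of medium-chain fatty acids, the parent had 236 to 408 TPM and 566 to 741 TPM, while its copy Gm5131 had 340 to 620 TPM and 13.9 to 19.2 TPM. The mean of the Acadm sum was 809 TPM in run 1 and 669 TPM in run 2. For Atp5o, a subunit of ATP synthase, the parent had 318 to 477 TPM and 667 to 1035 TPM, its copy Gm5436 had 373 to 663 TPM and 59.0 to 102 TPM, and the sums had means of 899 and 933 TPM. In both of these families the parent was lower in run 1 than in run 2 and the narrow copy was higher.

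Ldhb, a lactate dehydrogenase subunit, had means of 645 TPM in run 1 and 1062 TPM in run 2, and its copy Gm5514 had 180 and 1.26 TPM. Rpl4, a large-subunit ribosomal protein gene, had 123 and 285 TPM and its copy Gm5835 had 331 and 1.76 TPM. For Rpl32 the parent had 48.6 and 361 TPM and its 3 copies together 377 and 15.9 TPM. These 3 families had a higher parent and lower copies in run 2, but of 42 ribosomal protein families 7 did so, while 8 went the reverse way, 24 were lower in both and 3 higher in both. For Gapdh, the glycolytic dehydrogenase with 30 copies here (23 narrow), the parent had 44.2 to 66.8 TPM in run 1 and 245 to 428 TPM in run 2, while the copies together had 2312 to 3378 TPM and 2166 to 3317 TPM, which overlap. Chchd2 differed in another way, with parent and copy both lower in run 2 (1097 and 406 TPM for the parent, 986 and 373 TPM for the copy).

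**Figure D3:**
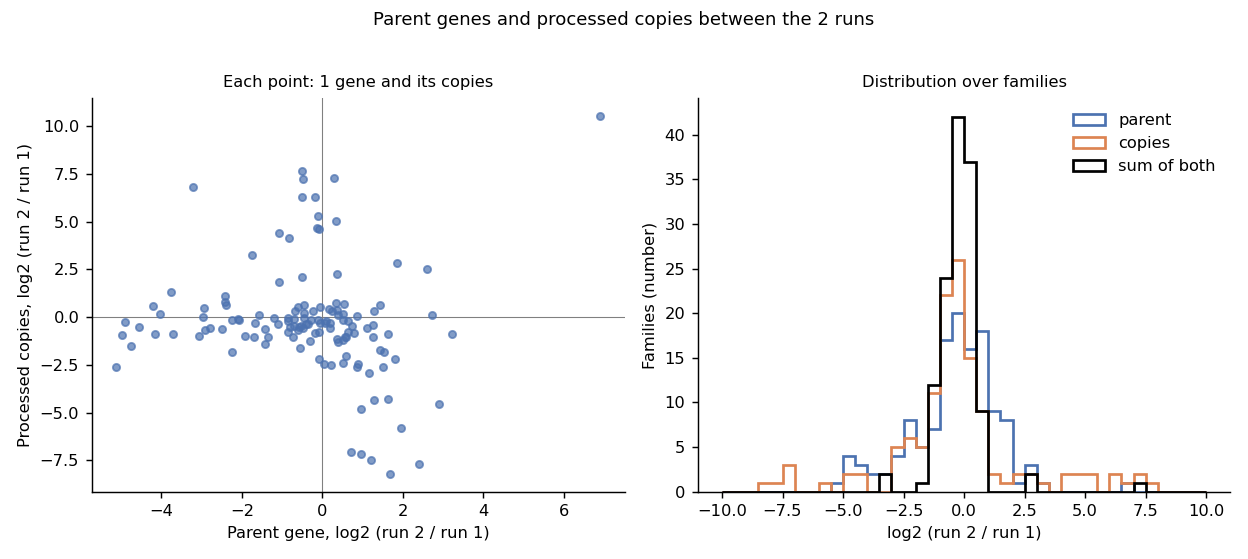
Left, log2 ratio of run 2 to run 1 of the parent gene's clusters against that of its pseudogene copies, 1 point per family; right, the distribution of the log2 ratio for parents, copies and their sum. The families differ in direction, with a higher parent and lower copies in 40 of 130 families, the reverse in 28, both higher in 17 and both lower in 45.

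Because of the difference between runs, conditions were compared within each run. The test was edgeR's quasi-likelihood F test with Benjamini-Hochberg adjustment over all clusters tested (10776 in run 1 and 10816 in run 2), and a cluster was called at an adjusted p under 0.05. In run 1 the 5 comparisons share the Mid libraries. A cluster "rose" if it was higher in the second group named. Of the narrow clusters 1476 were tested in run 1 and 1515 in run 2. Other clusters of like level are the other clusters weighted to the narrow clusters' 10 classes of mean CPM, as a description. The match is loose in the lowest class, as given below.

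From Pre to Mid, the step into the fast and torpor, 107 narrow clusters rose and 218 fell, which is 22.02% (95% Wilson interval 19.98 to 24.2%). The interval treats clusters as independent, though they share libraries, and so does not measure the spread between mice. The background over all clusters was 30.2% called, 15.4% up and 14.8% down, and 28.3% for other clusters of like level. The excess of lower over higher was in protein-coding genes (78 up and 143 down) and pseudogenes (18 up and 54 down), while other clusters of protein-coding genes had 1382 up and 1235 down. With upper-quartile scaling the counts were 77 up and 339 down, and with no scaling beyond library size 33 up and 121 down, so the share that rose was 32.9%, 18.5% and 21.4%.

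From Mid to Post, after food was given back, 276 narrow clusters rose and 109 fell (26.1%). The background was 35% called, 17.5% up and 17.5% down, and 34.7% for clusters of like level. Protein-coding genes gave 184 up and 82 down and pseudogenes 71 up and 14 down. The median log2 change was 0.09 over narrow clusters and -0.01 over all clusters. With upper-quartile scaling 81.5% of the calls were up (393 up and 89 down), against 71.7% with the main scaling.

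From HiT to Mid, 130 narrow clusters were higher in Mid and 420 were higher in HiT (37.3%). The background was 41% called, 19.2% up and 21.8% down, and 40.3% for clusters of like level. The median log2 change was -0.11 over narrow clusters and 0.02 over all clusters. Protein-coding genes gave 49 up and 236 down, against 1683 up and 1718 down for other clusters of protein-coding genes. Pseudogenes gave 54 up and 130 down. With library size alone the narrow counts were 79 up and 207 down, of which pseudogenes gave 31 and 36 and protein-coding genes 23 and 131. Cell division and macrophage marker genes were higher in HiT, as given above, and their part in these calls was not tested.

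From Fed to Mid, 184 narrow clusters rose and 246 fell (29.1%). The background was 35.2% called, 16.6% up and 18.6% down, and 35.9% for clusters of like level. Without Fed 2 and Fed 3, the libraries with liver tags, the counts were 122 up and 111 down, and without Fed 2 alone 120 and 143. Protein-coding genes went from 77 up and 211 down to 60 up and 91 down without them. Pseudogenes gave 75 up and 18 down, 47 up and 7 down without these libraries, 51 up and 22 down with upper-quartile scaling, and 6 up and 14 down with library size alone. The direction for pseudogenes therefore turned with the scaling, which without TMM also moved the median of all clusters to -0.12 on the log2 scale (0.11 from HiT to Mid and -0.10 from Mid to Dep). Of all narrow calls 42.8% were up with the main scaling, 53.2% with DESeq2 (218 up and 192 down), 32.5% with upper-quartile scaling (136 up and 282 down) and 17.2% with library size alone (45 up and 217 down).

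Between Mid and Dep, 19 narrow clusters were higher in Dep and 4 were lower (1.56%). The background was 2.03% called, 1.16% up and 0.872% down, and 1.73% for clusters of like level. At an unadjusted p under 0.05 there were 215 narrow clusters. With library size alone 4 were up and none was down, with DESeq2 33 were up and 8 down, and with only the Mid and Dep libraries in the edgeR fit none was called. The count up was 7 without Dep 2, 8 without Dep 4, 11 without Dep 1, and 10, 12 and 12 without Mid 2, Mid 3 or Mid 5.

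In run 2, with fewer and shallower libraries, 43 narrow clusters rose and 21 fell from Pre to Mid (4.22%). The background was 9.74% called, 5.3% up and 4.44% down, and 9.99% for clusters of like level. With upper-quartile scaling 54.5% of the calls were up (36 up and 30 down), against 67.2%. The counts were 10 and 6 without Pre 5, 9 and 4 without Pre 6 and 27 and 12 without Mid 12, and 34 fell without Post 7. Mid 11 and Post 7 had the most liver-list tags of run 2, and Mid 11 also held keratinocyte tags. Without both of these libraries 46 rose and 49 fell. Protein-coding genes then went from 28 up and 15 down to 28 up and 41 down. From Mid to Post 60 rose and 60 fell (7.92%), and 24 rose without Post 7, 35 without Mid 12 and 39 without Post 6, where 37 fell. The background was 16.4% called, 7.73% up and 8.65% down, and 16.8% for clusters of like level. Pre and 4 Mid libraries shared a lane, and Post and Mid 13 another, and with lane as a term the Mid to Post counts were 6 up and 13 down. Of 31 run 2 calls of named clusters 17 were lost with that term. Those of Per1, Slc25a22, Ddit3, Gadd45b, Zfp36, Inpp5j and Rnd1 were kept in each step called, and so was the fall of Grip2 into Mid. Scaling moved the balance here too, to 86 up and 50 down (63.2% up) with upper-quartile scaling and 80 up and 39 down (67.2% up) with library size alone.

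**Figure D4:**
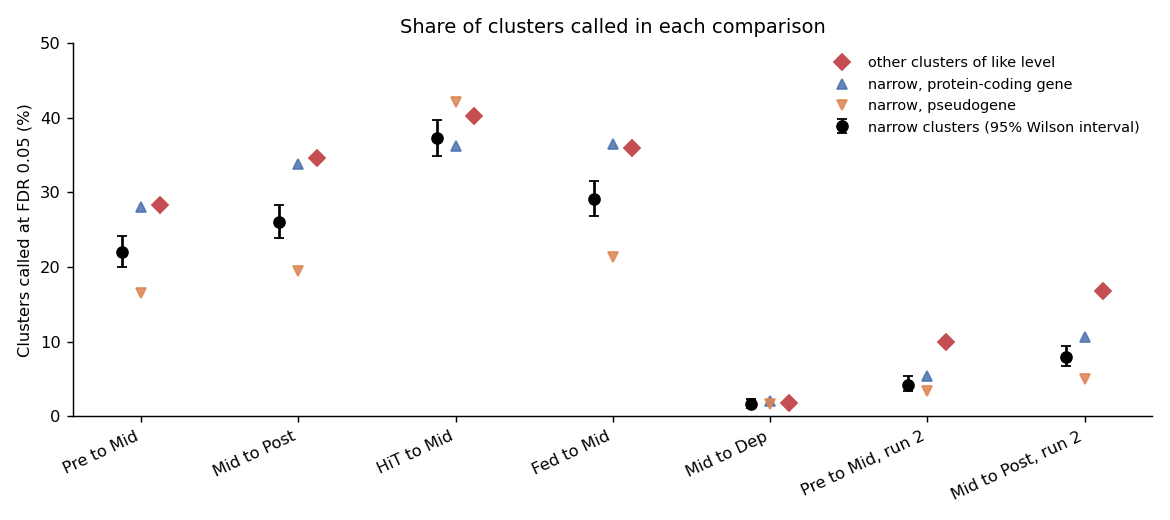
Percent of clusters called at an adjusted p under 0.05 in 7 comparisons, for narrow clusters (bars are 95% Wilson intervals), narrow clusters at protein-coding genes, narrow clusters at pseudogenes, and other clusters of like level. The bars treat clusters as independent and do not measure the spread between mice. The Fed to Mid values include the liver-tag Fed libraries. Narrow clusters ran from 1.56% (Mid to Dep) to 37.3% (HiT to Mid) and lay below clusters of like level in each comparison.

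As a description, with no test, the percent called was lower for narrow clusters than for other clusters of like level by 6.33 percentage points from Pre to Mid, 8.60 from Mid to Post, 3.06 from HiT to Mid, 6.78 from Fed to Mid, 0.17 from Mid to Dep, and 5.77 and 8.88 in the run 2 comparisons. For protein-coding genes alone the gap was 1.47, 3.73, 4.11, 0.66 and 0.01 points in run 1 and 4.29 and 6.39 in run 2. Both Fed to Mid gaps include the liver-tag Fed libraries. Without these libraries the narrow calls at protein-coding genes went from 77 up and 211 down to 60 up and 91 down. The gap without them was not computed. From Pre to Mid the gap lay at both ends of the range of level. The percent called was 10.2% against 21.6% in the lowest class (412 narrow clusters), 30.9% against 26.3% in the third class (194 clusters) and 10.1% against 29.5% in the highest class (119 clusters). The lowest class ran from 0.00123 to 5.84 CPM. Under 1 CPM stood 221 narrow clusters, those with no tag in run 1 included, and 31 other clusters. Level is therefore matched only loosely in that class, and the part of this in the gaps was not tested.

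The lists called in each run were compared. Of 1473 narrow clusters tested in both, 105 rose from Pre to Mid in run 1 and 40 in run 2, and 29 rose in both (27.6% of the run 1 list and 72.5% of the run 2 list). Of those that fell, 218 and 21 were called and 16 in both (7.34% and 76.2%). From Mid to Post 276 and 59 rose with 43 in both (15.6% and 72.9%), and 107 and 59 fell with 46 in both (43.0% and 78.0%). With lane as a term in run 2 the shared calls were 19 up and 11 down from Pre to Mid and 6 up and 13 down from Mid to Post. None was called in opposite directions. These overlaps were counted for narrow clusters only, so they cannot be set against the overlap over all clusters. A test of whether the change itself differed between runs called 0 of 10819 clusters for either step (0% and 0% of all clusters, edgeR interaction term). At an unadjusted p under 0.05 it gave 151 narrow clusters (9.95%, against 5.59% of all) for Pre to Mid and 133 (8.76%, against 6.51%) for Mid to Post.

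The largest rise from Pre to Mid was at Per1, the clock repressor that glucocorticoids also induce, at chr11:69098890-69099038 (plus strand, 149 bp). Pre libraries of run 1 had 1.16, 1.03, 0.565 and 1.28 TPM, and Mid had 1.92 to 5.61 TPM with a median of 4.55 TPM. Post had 0.531, 0.480, 0.536 and 1.26 TPM. Every Mid library was above every Pre and Post library. In run 2 Pre had 2.31 and 1.25 TPM, Mid had 10.8, 6.06, 8.27, 10.2 and 7.82 TPM, and Post had 2.19, 2.07 and 1.94 TPM, again without overlap. The log2 change was 2.13 ± 0.31 (SE) from Pre to Mid (adjusted p = 1.23e-05) and -2.60 ± 0.32 from Mid to Post (adjusted p = 7.79e-07). In run 2 it was 2.32 ± 0.33 (adjusted p = 0.00272) and -2.13 ± 0.27 (adjusted p = 0.000539).

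Slc25a22, the glutamate carrier of the inner mitochondrial membrane (chr7:141435289-141435407, minus strand), followed the same course. In run 1 Pre had 1.90, 1.75, 1.39 and 3.35 TPM, Mid had 2.98 to 12.1 TPM (median 8.51 TPM) and Post had 1.03, 1.11, 2.22 and 1.84 TPM. Pre 4 was above the lowest Mid library, and all others were below. In run 2 Pre had 8.09 and 7.96 TPM, Mid had 28.7, 24.2, 32.7, 28.3 and 28 TPM and Post had 6.39, 6.11 and 6.22 TPM, so levels were several times those of run 1 and groups did not overlap. The log2 changes were 2.05 ± 0.26 and -2.43 ± 0.27 in run 1 (adjusted p = 2.52e-06 and 2.03e-07) and 1.88 ± 0.13 and -2.26 ± 0.11 in run 2 (adjusted p = 5.26e-05 and 2.06e-06).

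A gene of fat use rose into Mid as well. Ehhadh, the peroxisomal enzyme whose promoter is printed above, had 3.86, 3.35, 3.24 and 3.42 TPM in Pre, 4.46 to 13.1 TPM in Mid (median 11.4 TPM) and 1.99, 2.40, 3.79 and 4.29 TPM in Post. No Mid library overlapped Pre or Post. The log2 change was 1.60 ± 0.21 (adjusted p = 3.06e-06) and -1.72 ± 0.21 (adjusted p = 7.42e-07), and in run 2 it was 1.38 ± 0.38 (adjusted p = 0.046) and -1.14 ± 0.32 (adjusted p = 0.033). Neither run 2 call was kept with lane as a term (adjusted p = 0.0763 and 0.215). The run 2 rise was lost without any of 7 libraries (adjusted p up to 0.291, without Pre 5) and the fall without any of 5 (up to 0.105, without Post 6).

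**Figure D5:**
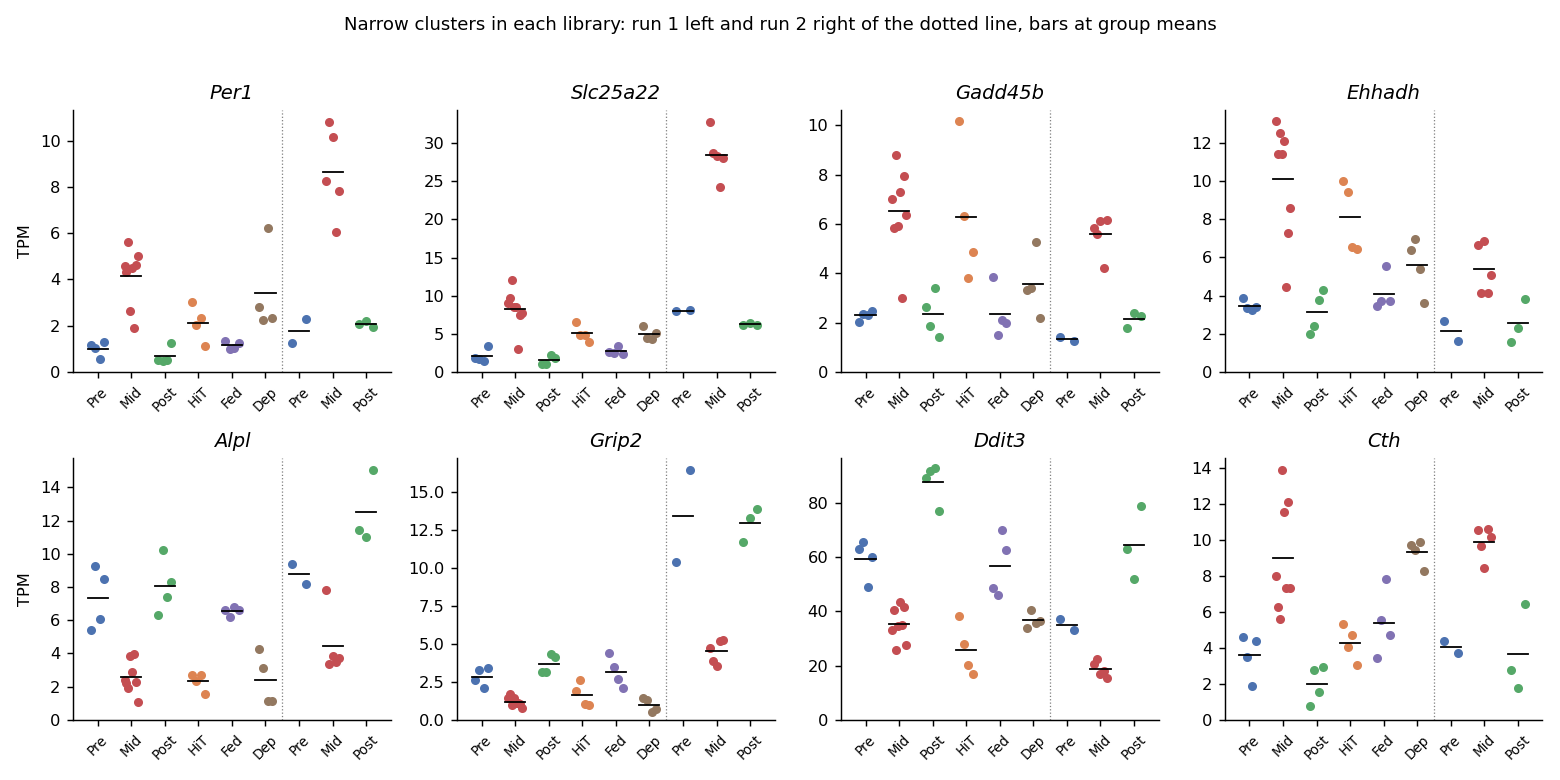
Level in TPM of 8 narrow clusters (Per1, Slc25a22, Gadd45b, Ehhadh, Alpl, Grip2, Ddit3 and Cth) in each library, with run 1 left and run 2 right of the dotted line and bars at group means. Per1 and Slc25a22 were higher in Mid than in Pre and Post in both runs, and Grip2 and Ddit3 were lower, as was Alpl in run 1.

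The immediate early and stress-induced gene list held 41 genes, of which 34 had a cluster and 5 had a narrow one. Of these 5, 4 rose from Pre to Mid and 4 fell from Mid to Post in run 1 (median log2 change 1.25 and -1.45, against 0.01 and -0.01 over all clusters), and 3 rose and 4 fell in run 2, where Gadd45g in both steps and Atf3 into Post were lost with lane as a term. The counts were the same under each of the 3 other scalings in run 1. Over all clusters of run 1, 15.4% rose from Pre to Mid and 17.5% fell from Mid to Post. Of 31 wider clusters of the list, 17 rose and 5 fell from Pre to Mid, and 2 rose and 18 fell from Mid to Post. Gadd45b, with the TATAAA promoter printed above, had 2.03, 2.36, 2.30 and 2.48 TPM in Pre, 2.98 to 8.81 TPM in Mid (median 6.68 TPM) and 2.65, 1.85, 3.41 and 1.43 TPM in Post. Mid lay above Pre throughout and Post 3 lay within the Mid range. Its log2 change was 1.58 ± 0.29 (adjusted p = 0.00016) and -1.45 ± 0.28 (adjusted p = 0.000279).

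Gadd45g was about 10 times more abundant, at 24.2, 29.8, 26.2 and 29.5 TPM in Pre, 23.5 to 86.2 TPM in Mid (median 62.7 TPM) and 17.8, 27.2, 20.3 and 37.2 TPM in Post. Zfp36, the mRNA decay factor, had 3.67, 4.72, 3.16 and 4.96 TPM in Pre, 3.93 to 15.2 TPM in Mid (median 10.6 TPM) and 2.46, 3.95, 3.06 and 3.88 TPM in Post. Atf3, a transcription factor of the stress response (chr1:191183140-191183262, minus strand), had 9.78, 6.62, 4.26 and 8.35 TPM in Pre, 7.41 to 28.8 TPM in Mid (median 17.2 TPM) and 4.41, 6.35, 6.28 and 5.28 TPM in Post. In each of these 3 the lowest Mid library overlapped Pre. The log2 changes into Mid were 1.18 ± 0.23, 1.38 ± 0.20 and 1.25 ± 0.25, with adjusted p = 0.000327, 9.53e-06 and 0.00051. Egr1, the zinc finger protein that classically marks an immediate early response, had 24.0, 35.2, 30.5 and 31.7 TPM in Pre and 19.7 to 40.7 TPM in Mid (median 24.1 TPM), with a log2 change of -0.06 ± 0.23 (adjusted p = 0.879).

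Others that rose into Mid and fell into Post were Zim1, an imprinted zinc finger gene (log2 change 1.70 ± 0.34 and -1.60 ± 0.34), Rnd1, a small GTPase (1.40 ± 0.32 and -2.03 ± 0.34), Cth, which makes cysteine from cystathionine (1.39 ± 0.25 and -2.20 ± 0.27), and Inmt (0.83 ± 0.24 and -0.72 ± 0.23). Their adjusted p-values in run 1 ran from 7.6e-07 to 0.018. In run 2 the rise passed for Zim1 and Inmt and the fall for Zim1, Rnd1 and Cth, and of these 5 calls only that of Rnd1 was kept with lane as a term. The fall of Inmt in run 1 was not called without Post 1 (adjusted p = 0.0873, edgeR), and both rises in run 2 were lost without Pre 6 (adjusted p = 0.221 and 0.308).

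Among the clusters that fell into Mid, Alpl, the tissue-nonspecific alkaline phosphatase, had 5.40, 9.28, 6.06 and 8.50 TPM in Pre, 1.08 to 3.99 TPM in Mid (median 2.34 TPM) and 6.30, 10.2, 7.42 and 8.28 TPM in Post. Grip2, a scaffold protein of glutamate receptors, had 2.61, 3.31, 2.07 and 3.38 TPM in Pre, 0.749 to 1.68 TPM in Mid (median 1.13 TPM) and 3.12, 3.18, 4.32 and 4.16 TPM in Post. Neither overlapped between Mid and the groups before and after it. The log2 changes were -1.40 ± 0.28 and 1.62 ± 0.28 for Alpl (adjusted p = 0.000489 and 7.49e-05) and -1.15 ± 0.26 and 1.60 ± 0.26 for Grip2 (adjusted p = 0.00149 and 3.02e-05). In run 2 Grip2 changed by -1.50 ± 0.21 and 1.43 ± 0.19 (adjusted p = 0.00243 and 0.000603), and Alpl by 1.42 ± 0.25 into Post (adjusted p = 0.0031). With lane as a term neither change into Post passed (adjusted p = 0.0652 for Grip2 and 0.0836 for Alpl). The run 2 change of Alpl from Pre to Mid, -0.93, was not called.

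Ddit3, the CHOP transcription factor, had 63.2, 65.5, 49.0 and 60.2 TPM in Pre, 25.9 to 43.6 TPM in Mid (median 34.8 TPM) and 89.3, 92.0, 92.8 and 77.1 TPM in Post. It ran against the other stress genes, being lowest in Mid and highest in Post with no overlap of the 3 groups. The log2 change was -0.67 ± 0.12 (adjusted p = 0.000221) and 1.32 ± 0.12 (adjusted p = 1.45e-08), and in run 2 -0.86 ± 0.16 (adjusted p = 0.00783) and 1.71 ± 0.13 (adjusted p = 3.16e-05). The fall in run 2 was lost without Pre 5 or Pre 6 (adjusted p = 0.0533 and 0.0886).

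The same down and up course was passed by Inpp5j, an inositol phosphatase (log2 change -0.83 ± 0.19 and 1.52 ± 0.19), Dcps, the scavenger decapping enzyme (-0.71 ± 0.13 and 1.15 ± 0.12), Cers1, a ceramide synthase (-1.05 ± 0.28 and 1.13 ± 0.28), the creatine kinase Ckb (-1.13 ± 0.17 and 0.87 ± 0.17), the surface glycoprotein Thy1 (-1.0 ± 0.20 and 0.62 ± 0.20), Actb (-0.60 ± 0.14 and 0.72 ± 0.14) and Prkaa1, a catalytic subunit of the AMP-activated kinase (-0.35 ± 0.11 and 0.50 ± 0.11). Adjusted p-values ran from 1.17e-07 to 0.0182. The call was lost for Thy1 into Post without Post 1 (adjusted p = 0.0938) and for Prkaa1 into Mid without Pre 1 or Mid 8 (0.0921 and 0.0518). Ccl2, a chemokine that draws monocytes, fell by 2.68 on the log2 scale from Pre to Mid (SE 0.54, adjusted p = 0.000461), where Pre had 9.23, 1.26, 0.490 and 3.91 TPM and Mid 0 to 1.20 TPM (median 0.559 TPM), so that Pre 3 lay within the Mid range.

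Ribosomal protein genes had 14 narrow clusters among 85 genes. From Pre to Mid 6 fell and none rose (median log2 change -0.17), and from Mid to Post 8 rose and none fell (0.19). From HiT to Mid 13 fell and none rose (-0.28). Over all clusters 14.8% fell, 17.5% rose and 21.8% fell in these 3 comparisons. Wider clusters of these genes went the same way. Of 69, 30 fell and none rose from Pre to Mid, 36 rose and none fell from Mid to Post, and 55 fell and 2 rose from HiT to Mid. In run 2 none of the 14 was called, with median changes of 0.13 from Pre to Mid, opposite in sign to run 1, and -0.03 from Mid to Post. The sign of the Mid to Post median in run 2 turned with the scaling. It was 0.05 with library size alone and 0.02 with upper-quartile scaling, and -0.02 with DESeq2. The run 1 changes depended on scaling in number though not in direction: with library size alone 1 fell, 1 rose and 3 fell in the same 3 comparisons, and with upper-quartile scaling 10, 12 and 13. Rpl8 at chr15:76904007-76904141 shows the run difference for such genes, with 76.8 to 131 TPM in run 1 and 1.32 to 3.21 TPM in run 2.

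The muscle gene list had 3 narrow clusters among 64 genes with a cluster (Atp2a1, Tnnt1 and Ttn). The Ttn cluster at chr2:76867998-76868091 (minus strand), at the gene of the giant sarcomere protein titin, had 6.37, 7.57, 6.78 and 5.71 TPM in Pre, 8.85 to 12.7 TPM in Mid and 8.99, 7.35, 6.81 and 4.70 TPM in Post. It rose by 0.80 into Mid and fell by 0.63 into Post on the log2 scale, and neither step passed in run 2. The fall was lost without Post 2, Post 3 or Post 4 (adjusted p up to 0.127). The metal handling list had 4 (Fth1, Hamp, Mt3 and Slc40a1), of which Slc40a1, the iron exporter ferroportin, fell from Mid to Post by 0.70 in run 1 and 0.82 in run 2, the latter lost with lane as a term (adjusted p = 0.271) and without any of 6 libraries (adjusted p up to 0.117). The fasting list had 2, Per1 among them, and the clock list 1, Per1. The lists of lipid synthesis, heat shock and extracellular matrix genes had no narrow cluster.

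Against HiT, mice that fasted at high ambient temperature, the clearest gene group was the histones. All 9 narrow histone clusters were lower in Mid (median log2 change -2.65), and all 9 were lower with library size alone and with upper-quartile scaling, and 8 of 8 with DESeq2. Of 54 wider histone clusters 47 were lower and none was higher. Hist1h3c, a core histone H3 gene (chr13:23745455-23745573, minus strand), had 78.3, 66.8, 22.3 and 44.3 TPM in HiT and 0.981 to 2.37 TPM in Mid (median 1.60 TPM). Hist1h1b, the linker histone gene printed above, had 15.7, 13, 2.86 and 7.83 TPM in HiT and 0.251 to 0.689 TPM in Mid (median 0.418 TPM). Neither overlapped. The log2 changes were -5.15 ± 0.59 (adjusted p = 1.58e-07) and -4.41 ± 0.54 (adjusted p = 4.12e-07). The cell division marker genes, none of them narrow, were also highest in HiT (25.8 to 57.3 TPM), and their part in the histone levels was not tested.

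The chemokine gene Ccl2, the leukocyte gene Selplg and Actb were also higher in HiT than in Mid. Ccl2 had 24.2, 21.4, 19.7 and 13 TPM in HiT, with a log2 change of -5.22 ± 0.54 to Mid (adjusted p = 2.94e-08). Selplg, the P-selectin ligand of leukocytes, had 11.4, 6.90, 3.72 and 5.42 TPM in HiT against 0.565 to 1.80 TPM in Mid (log2 change -2.84 ± 0.30), and Actb had 1209, 865, 469 and 573 TPM against 220 to 302 TPM (-1.65 ± 0.14). Macrophage marker genes stood at 143 to 430 TPM in HiT and 46.9 to 71.8 TPM in Mid, and their part was not tested.

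Arginase, Arg1, moved with more than 1 tissue. It had 17.8, 8.84, 4.20 and 5.02 TPM in HiT and 0 to 2.17 TPM in Mid (median 0.0696 TPM; log2 change -4.56 ± 1.02, adjusted p = 0.000898), and also 8.13 and 5.19 TPM in Fed 2 and Fed 3, the liver-tag libraries, against 0.154 and 0.121 TPM in Fed 1 and Fed 4. The Fed to Mid call (log2 change -3.09) was lost without Fed 2 (-2.01, adjusted p = 0.179).

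Fewer narrow clusters were higher in Mid than in HiT. They held Cth (log2 change 0.95 ± 0.25), Per1 (0.90 ± 0.28), Inmt (0.89 ± 0.24), Zfp36 (0.80 ± 0.19), Amd2, an S-adenosylmethionine decarboxylase gene (0.79 ± 0.19), and Atf3 (0.77 ± 0.24). Adjusted p-values ran from 0.00147 to 0.0135, and the Atf3 call was lost without HiT 2 (adjusted p = 0.0659). Per1 in HiT had 3.01, 2.03, 2.32 and 1.14 TPM, which overlaps Mid. Gadd45b and Ehhadh did not pass between these fasted groups, with differences of -0.03 ± 0.26 and 0.20 ± 0.19. For these 2 the HiT values were 10.2, 6.33, 3.81 and 4.86 TPM and 10.01, 9.40, 6.55 and 6.46 TPM, within the Mid range throughout for Ehhadh and with 1 library above it for Gadd45b.

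Against Fed, mice kept in the cold with food on the same day, the clusters that rose into Mid included those that rose from Pre, with which Mid is shared. Per1 had 1.34, 1.01, 1.06 and 1.26 TPM in Fed (log2 change 1.94 ± 0.31, adjusted p = 2.52e-05) and Slc25a22 had 2.67, 2.47, 3.39 and 2.29 TPM (1.71 ± 0.26, adjusted p = 1.4e-05). Gadd45g (1.64 ± 0.23), Gadd45b (1.57 ± 0.29) and Ehhadh (1.40 ± 0.21) were also higher in Mid.

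The largest falls from Fed to Mid were liver genes: Rgn, Mup20, Cyp2c29, the pseudogene Mup-ps19, Apoa2 and Ces1c, with fitted log2 changes of -4.82 to -4.33. They rest on the Fed 2 and Fed 3 libraries. Cyp2c29, whose TATAAA promoter is printed above, had 0, 8.73, 10.5 and 0 TPM in Fed and 0 to 1.19 TPM in Mid (median 0 TPM), and Mup20, a major urinary protein gene, had 0.103, 44.3, 27.1 and 0.628 TPM in Fed and 0 to 3.55 TPM in Mid. Without these libraries none of the 6 was called and all 6 fitted changes turned positive. Clusters whose fall did not rest on them included Cers1, at 10.5, 4.33, 5.43 and 5.02 TPM in Fed against 1.13 to 2.16 TPM in Mid (log2 change -1.95 ± 0.27, adjusted p = 5.6e-06), and Amd2, at 85.7, 43.5, 49.5 and 54.4 TPM against 17.2 to 36.2 TPM (-1.07 ± 0.18, adjusted p = 4.82e-05).

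Between Mid and Dep, mice touched whenever their metabolism began to drop, Atf3 was higher in Dep, with 18.6, 27.3, 38.1 and 28.1 TPM against 7.41 to 28.8 TPM in Mid (median 17.2 TPM; log2 change 0.88 ± 0.23, adjusted p = 0.0427). The ranges overlap, and the call was lost without any 1 of 13 libraries, Dep 2, Dep 3 and Dep 4 among them (adjusted p up to 0.15). Efnb2, an ephrin ligand of cell contact, was lower in Dep, with 12.8, 13.2, 13.9 and 10.6 TPM against 16.4 to 21.7 TPM in Mid without overlap (log2 change -0.46 ± 0.09, adjusted p = 0.0163). Ldhd, which oxidises D-lactate, was lower by 0.39 (SE 0.10, adjusted p = 0.0376), and Ehhadh by 0.74 (SE 0.20, adjusted p = 0.0498). Leaving out 1 library ended the Ldhd call for 9 of 28 libraries (adjusted p up to 0.137) and the Ehhadh call for 22 of 28 (up to 0.172), while the Efnb2 call was kept each time. Fitting only the Mid and Dep libraries ended every one of these calls, with 0 of 1466 narrow clusters called (edgeR; 162 at an unadjusted p under 0.05) and adjusted p = 0.152 for Atf3 and 0.0966 for Efnb2. Per1 did not pass, with 2.79, 2.27, 6.21 and 2.35 TPM in Dep.

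The largest fitted changes between Mid and Dep rest on Dep 1. Camp, the cathelicidin of neutrophil granules, had 53.2 TPM in Dep 1 and 0 TPM in the other 3, and Ngp, another granule protein, had 22.5 TPM and 0 TPM. S100a8 had 23.4 TPM in Dep 1 and 0.577, 0.256 and 0.385 TPM in the others, and S100a9 had 17.6 TPM and 0.247, 0.0365 and 0.193 TPM. Hist1h3c had 26.6 TPM in Dep 1 and 0.742, 1.61 and 1.19 TPM in the others. All 5 passed with Dep 1, and without it none did, nor did any in the fit of only Mid and Dep.

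Pseudogene copies could be set beside their parents within each comparison. Of 18 copies that rose from Pre to Mid the parent was called in the same direction for 12, and of 51 that fell, for 31. From Mid to Post this held for 49 of 68 that rose and 11 of 14 that fell. From HiT to Mid it held for 16 of 49 that rose and 105 of 119 that fell, and for 1 of those 119 the parent was called in the opposite direction. From Fed to Mid it held for 42 of 74 and 13 of 14. In the other comparisons and directions no parent was called against its copy. Copies of 1 parent are not independent: the 119 copies lower in Mid than HiT came from 79 parents.

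For genes with both a narrow and a wider cluster, the levels of both were compared. There were 42 such pairs in run 1 and 43 in run 2, and the log2 ratio of narrow to wider was tested by a two-sided exact permutation test with adjustment over the pairs. These genes lie outside the naming rule and were chosen after their values were seen. The ratio changed in 4 pairs from Pre to Mid (Aldh1a1, Nt5c3, Ptp4a3 and Smtn), in 7 from HiT to Mid (4 with a pseudocount of 1 TPM, without Aldh1a1, Gtf2i and Myl6), in 8 from Fed to Mid, and in none from Mid to Post (10 at an unadjusted p under 0.05) or from Mid to Dep (5). In run 2 none passed (0 pairs from Pre to Mid and 7 from Mid to Post at an unadjusted p under 0.05). There the exact permutation p cannot go below 0.0952 with 2 Pre against 5 Mid libraries, or below 0.0357 with 5 Mid against 3 Post.

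Smtn, which encodes the actin-binding protein smoothelin, shows a split between its promoters. Its narrow cluster at chr11:3539190-3539337 (minus strand, 148 bp) lies 11312 bp upstream of the wider cluster at chr11:3527460-3528082. The narrow cluster had 15.5, 22, 16.8 and 19.8 TPM in Pre, 15.2 to 19.4 TPM in Mid (median 17.2 TPM) and 12.5, 16.7, 18.3 and 22.4 TPM in Post. The wider cluster had 46.0, 71.6, 57.4 and 63.6 TPM in Pre, 13.7 to 30.02 TPM in Mid (median 18.6 TPM) and 74.9, 69.6, 67.8 and 87.8 TPM in Post. The wider cluster was lower in every Mid library while the narrow cluster overlapped across all 3 groups. The log2 change from Pre to Mid was -0.01 (adjusted p = 0.957) for the narrow and -1.49 (adjusted p = 8e-07) for the wider cluster. Their log2 ratio changed by 1.54 (exact permutation p = 0.00404, the smallest 8 against 4 libraries allow, adjusted p = 0.0424). In run 2 the log2 changes were -0.06 and -1.31.

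Nt5c3, a cytosolic nucleotidase, moved in the other direction. Its narrow cluster at chr6:56901834-56901976 (minus strand) had 1.96, 3.27, 3.05 and 3.53 TPM in Pre and 2.64 to 6.06 TPM in Mid (median 4.48 TPM), a log2 change of 0.66 (adjusted p = 0.00827), while its wider cluster changed by -0.25 (adjusted p = 0.032). The ratio changed by 0.89 (exact permutation p = 0.00404, adjusted p = 0.0424), and in run 2 the log2 changes were 0.93 and -0.06. For Ptp4a3, a phosphatase, the narrow cluster changed by -0.33 and the wider by 0.37. For Per1 both clusters rose, the narrow by 2.13 and the wider by 1.51, and the ratio did not pass (log2 change 0.49, exact permutation p = 0.0162, adjusted p = 0.0848).

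Against HiT the Atf3 pair differed most. Its narrow cluster was higher in Mid (log2 change 0.77) and its wider cluster, 34686 bp away, was higher in HiT (-3.47), with 10.1 to 30.9 TPM in HiT and 0.314 to 8.08 TPM in Mid. The ratio changed by 4.81 (exact permutation p = 0.00404, adjusted p = 0.0424). In Mbnl1, a splicing regulator of muscle, the narrow cluster alone moved, from 3.37 to 10.6 TPM in HiT to 1.47 to 2.21 TPM in Mid (log2 change -1.83), while the wider cluster changed by 0.06 (adjusted p = 0.543).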

How the data were processed

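CAGE libraries were made and sequenced by the authors, who trimmed reads, aligned them to mm10 (BWA, then HISAT2) and clustered start positions with PromoterPipeline. The table they deposited gives tag counts per cluster and library, and the same values scaled to TPM (tags scaled to a common total per library). Depth was 18257657 to 39176649 tags per library in run 1 (median 26580286.5) and 9359994 to 20914855 in run 2 (median 11281870). Counts were tested with edgeR 4.0.16 in R 4.3.3 (TMM scaling, group as the only term, quasi-likelihood F test), separately for each run and over all clusters that passed no filter beyond a tag in some library. DESeq2 1.42.0 was an alternative. The scripts were tested on simulated data. Pairs of clusters were compared by exact permutation on log2(TPM + 0.1), and fold changes on that scale understate changes of low clusters. Clusters were annotated to 5′ ends within 500 bp, and parents of pseudogenes were found with blastn 2.17.0.

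The clusters and gene lists were chosen with earlier results of these data known. Clusters were named by a rule: the 20 annotated ones with the highest mean TPM in run 1, the 6 rises and 6 falls with the largest log2 change in each run 1 comparison among those called and at 1 TPM or more in the higher group, and members of the gene lists (93 in all, 2 of which are not reported here). Each library is 1 mouse. P-values measure the spread between these mice.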

Additional observations from a re-analysis of the deposited data

Results flagged for a closer look

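Within groups of 4 to 10 libraries, 26 of 173 sets of values had 1 library set apart from the others by Dixon's criterion at the 95% level (15.03%). The liver, keratinocyte and cell division lists were added after the data were seen, and the genes were those described above. The share therefore cannot be set against the nominal 5%. Most were libraries that carried tags of another tissue. Dep 1 stood apart for the neutrophil list (117 TPM), Camp (53.2 TPM), S100a8 (23.4 TPM) and Hist1h3c (26.6 TPM). Mid 11 stood apart in run 2 for the liver list (832 TPM), the keratinocyte list (685 TPM), the neutrophil list (7.92 TPM), the cell division list (43.3 TPM), Hist1h3c (74.0 TPM), Alpl (7.84 TPM), Camp (4.64 TPM), Mup20 (3.35 TPM) and Cyp2c29 (1.21 TPM). Mid 7 stood apart in run 1 for Mup20 (3.55 TPM), Arg1 (2.17 TPM), Cyp2c29 (1.19 TPM) and Atf3 (28.8 TPM).

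Other isolated values were spread over groups. In Dep 3 Per1 had 6.21 TPM and Gadd45g 77.3 TPM, both the highest of the 4 Dep libraries. Per1 had 1.26 TPM in Post 4 and Ehhadh 5.54 TPM in Fed 3. S100a8 had 0.600 TPM in Mid 2. In HiT 4 Mup20 had 0.848 TPM and Cyp2c29 0.261 TPM, and Camp had 0.0483 TPM in Fed 4, levels of a few tags. The share of tags in narrow clusters was 6.39% in Pre 2, above the other Pre libraries of run 1.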

How the results depend on the processing

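Counts are given as up and down. Of 7018 recomputed values for 205 called changes of named clusters, 6529 kept direction and call, 479 lost the call and 10 reversed. Most of these leave out 1 library, and 100 of the 205 lost the call or reversed under at least 1 setting, 61 with library size alone and 17 of 31 in run 2 with lane as a term. With library size alone they were 33 and 121 (Pre to Mid), 102 and 48 (Mid to Post), 79 and 207 (HiT to Mid), 45 up (Fed to Mid), 4 and 0 (Mid to Dep) and 39 down (Mid to Post, run 2). Upper-quartile scaling gave 339 down from Pre to Mid. DESeq2 gave 33 and 8 (Mid to Dep), 67 up (Pre to Mid, run 2) and 93 down (Mid to Post, run 2), and a likelihood ratio test gave 29 up (Mid to Dep) and differences from clusters of like level of -9.72 points (Fed to Mid) and -7.30 (Mid to Post, run 2). Fits of only the groups compared gave 109 up (Fed to Mid) and 0 and 0 (Mid to Dep). Fed to Mid without both liver-tag libraries gave 122 and 111. Run 2 without Mid 11 and Post 7 gave 49 down (Pre to Mid) and 24 up (Mid to Post). A term for lane gave 6 and 13 from Mid to Post. A fit of all 38 libraries with run as a term, in which both runs inform each comparison, gave 147 and 250 and 321 and 152 for the run 2 steps.

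At a limit of 100 bp, in the order of the 7 comparisons, counts were 23 and 59, 68 and 23, 57 and 151, 77 and 73, 9 and 2, 14 and 5, and 13 and 14. Differences from like level were -13.1, -17.3, -5.76 and -10.8 points in run 1 up to Fed to Mid and -11.7 for Mid to Post in run 2. Shares of tags were 3.13% (Pre), 2.86% (Mid), 3.00% (Post), 2.99% (HiT), 2.95% (Fed) and 2.81% (Dep), and 4.56%, 4.38% and 4.32% in run 2, and TATAAA was in 13.5%. At 200 bp counts were 314 and 5.0e+02, 618 and 340, 326 and 864, 416 and 540, 50 and 11, 105 and 81, and 178 and 156. Differences were -2.62, -3.86 and -0.43 points up to HiT to Mid and -4.75 and -7.03 in run 2. Shares were 12%, 11.3%, 11.7%, 12.2%, 11.8% and 11.2%, and 12.8%, 12.7% and 12.8% in run 2, and TATAAA was in 4.22%. Protein-coding genes alone gave 143 down (Pre to Mid), 49 and 236 (HiT to Mid), 77 up (Fed to Mid) and 28 up (Pre to Mid, run 2). Differences were -1.47, -3.73, -0.66 (Fed to Mid, liver-tag libraries included), -4.29 and -6.39 points. These limits change which clusters are counted. Without the 10 clusters with most tags shares were 5.04%, 4.58%, 4.87%, 4.94%, 4.84% and 4.48%, and 6.55%, 6.37% and 6.37%. The start pair was at the tabulated peak itself in 25.1%. With a pseudocount of 1 TPM, 4 pairs of clusters changed in ratio from HiT to Mid.

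Leaving out 1 library at a time moved counts from 78 to 131 up and 166 to 226 down (Pre to Mid), 203 to 311 and 90 to 117 (Mid to Post), 106 to 157 and 349 to 430 (HiT to Mid), 120 to 227 and 143 to 247 (Fed to Mid, lowest without Fed 2), 7 to 28 and 1 to 4 (Mid to Dep), and in run 2 9 to 54 and 4 to 34 (Pre to Mid, lowest without Pre 6) and 24 to 81 and 37 to 79 (Mid to Post, fewest up without Post 7). Group shares stayed within 5.65 to 6.53% in run 1 and 7.37 to 7.74% in run 2.

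Reversed changes from Fed to Mid without the liver-tag libraries were Arg1 (1.59), Rgn (4.15), Mup20 (0.89), Cyp2c29 (5.31), Mup-ps19 (0.91), Apoa2 (1.49) and Ces1c (1.32). From Mid to Dep, leaving out 1 library, they were Hist1h3c (-0.31 to 2.77), Ngp (-2.35 to 8.74) and Camp (-3.04 to 9.54), negative without Dep 1. With all 38 libraries in 1 fit they were Selplg (0.73), Crct1 (-5.31), Ttn (0.53), Rps26 (-0.32), Rpl3 (0.49), Rpl7l1 (0.22) and Rpl11 (-0.20) in run 2 steps or Mid to Post, and the cause was not tested. Replicate numbers did not pair the libraries of run 1: 60 pairs with the same number had correlations of their deviations from -0.44 to 0.55 (median -0.01), 22 of them over 0.1, against a median of 0.001 for other pairs. With the replicate block 34 of 174 called changes of named clusters were lost and no count moved by over 1.5 times. In run 2 the block could not be fitted, as Mid shares no number with Pre or Post. Run 2 libraries were fewer and shallower than those of run 1, and the part of depth in their lower counts was not tested.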
